A study of Mus musculus with 2 samples.

Results

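The enzymes of leukotriene and prostaglandin synthesis, with 1 of their receptors, were followed in single immune cells of mouse liver metastases. The genes were taken by symbol as a list of 10 of the 56941 features in the count matrices: Alox5 (ENSMUSG00000025701), Alox5ap (ENSMUSG00000060063), Ltc4s (ENSMUSG00000020377), Lta4h (ENSMUSG00000015889), Ptgs1 (ENSMUSG00000047250), Ptgs2 (ENSMUSG00000032487), Ptges (ENSMUSG00000050737), Hpgds (ENSMUSG00000029919), Pla2g4a (ENSMUSG00000056220) and Ltb4r1 (ENSMUSG00000046908). All 10 were found in both matrices. The cells came from C57BL/6 mice aged 6 to 8 weeks, into whose spleens MC38-LM3b cells had been injected, a liver-metastatic derivative of the mouse colorectal cancer line MC38. The tumor cells carried a scrambled hairpin (shScramble, here Ctrl) or 1 hairpin against SLAMF3 (shSLAMF3, here KD), a SLAM family receptor encoded by Ly9, so that the host's own cells were not altered in either group. Liver metastases were collected 2 weeks after injection, tissue of 3 mice was pooled per group, and CD45+ cells were sequenced as 1 droplet library per group. There were thus no replicates, no test was made, and each interval given is a 95% interval for counting error only, which says nothing of the spread between mice.

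Leukotrienes and prostaglandins are short-lived lipid signals cut from arachidonic acid, which the cytosolic phospholipase encoded by Pla2g4a frees from membranes. In the leukotriene branch, 5-lipoxygenase (Alox5) works with its membrane partner FLAP (Alox5ap) to form leukotriene A4. Leukotriene A4 hydrolase (Lta4h) turns this into leukotriene B4, a strong attractant for neutrophils that acts on the receptor encoded by Ltb4r1, whereas leukotriene C4 synthase (Ltc4s) joins it to glutathione and gives the cysteinyl leukotrienes. In the prostaglandin branch, the constitutive cyclooxygenase 1 (Ptgs1) and the inducible cyclooxygenase 2 (Ptgs2) make prostaglandin H2, from which Ptges makes prostaglandin E2 and Hpgds makes prostaglandin D2. Neutrophils are known for leukotriene B4, macrophages for both branches, and prostaglandin E2 for dampening immune responses in tumors.

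The proximal promoters of 4 members are printed because the contrasts between the libraries in macrophages, described further on, turn on these genes: Ltc4s and Ptgs1 were higher and Ptgs2 and Hpgds lower in KD. Each sequence is the 250 bases before the RefSeq start of the gene, 5′ to 3′ in the direction of transcription, on GRCm38.p6, and capitals mark matches to any of 6 motifs.
Ltc4s (chr11:50238533-50238782, minus strand): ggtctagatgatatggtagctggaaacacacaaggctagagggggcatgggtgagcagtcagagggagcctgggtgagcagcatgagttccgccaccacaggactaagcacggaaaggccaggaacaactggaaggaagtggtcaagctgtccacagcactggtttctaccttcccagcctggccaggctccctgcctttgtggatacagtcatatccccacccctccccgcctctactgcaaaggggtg
Ptgs1 (chr2:36230176-36230425, plus strand): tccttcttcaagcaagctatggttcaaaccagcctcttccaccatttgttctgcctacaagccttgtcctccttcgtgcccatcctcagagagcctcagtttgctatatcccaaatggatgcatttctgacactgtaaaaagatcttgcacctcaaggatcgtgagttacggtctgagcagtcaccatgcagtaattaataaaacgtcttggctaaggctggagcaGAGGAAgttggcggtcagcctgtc
Ptgs2 (chr1:150099781-150100030, plus strand): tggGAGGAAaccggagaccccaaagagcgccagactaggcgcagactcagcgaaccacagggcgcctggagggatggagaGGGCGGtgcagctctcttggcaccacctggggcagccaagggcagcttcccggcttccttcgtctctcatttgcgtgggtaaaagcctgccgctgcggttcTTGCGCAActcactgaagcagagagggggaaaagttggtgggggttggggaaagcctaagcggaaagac
Hpgds (chr6:65144731-65144980, minus strand): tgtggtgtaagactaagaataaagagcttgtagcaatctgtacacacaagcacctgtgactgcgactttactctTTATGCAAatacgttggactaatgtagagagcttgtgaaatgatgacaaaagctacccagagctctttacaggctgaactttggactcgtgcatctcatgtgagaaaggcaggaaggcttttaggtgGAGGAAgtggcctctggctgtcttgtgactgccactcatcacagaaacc
The motifs were searched on both strands, and no matches overlapped in the windows shown. Of the 10 members, 9 had a window in the RefSeq table. The letters of a PU.1 type site, GAGGAA, were found for 7 of these 9, against 23.3% of all 32851 windows of the same length. A GC box, spelled GGGCGG, was found for 4 members and in 32.7% of all windows. The C/EBP type site (TTGCNNAA) was found for Ptgs2 and Hpgds and in 9.56% of all windows. The TATA box, read as TATAAA, was found for Pla2g4a among the members and in 12.4% of all windows. An AP-1 type site with the letters TGANTCA, held by 6.75% of all windows, had no match among the members. The E-box CACGTG, held by 6.02% of all windows, had none either. The Ltc4s window held none of the 6 motifs. These are matches of letters in a window and not measured binding sites.

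The Ctrl library held 10416 barcodes with 67207234 UMIs (unique molecular identifiers, each counting 1 captured RNA molecule), and the KD library 10943 barcodes with 64444715 UMIs. Of these, 9814 Ctrl cells (median 5412 UMIs) and 10185 KD cells (median 4989 UMIs) passed the study's filters, and 27 barcode sequences occurred in both libraries. Cells were clustered with the members left out, and 16 of 17 clusters were named from marker lists, each name standing for cells that were like that type by their markers. Granulocytes, for example, were named from S100a8, Csf3r and Cxcr2 and macrophages from Csf1r, Cd68 and C1qa or Ccr2. The KD library held more granulocytes (2222 cells, 21.8% of cells, against 779, 7.94%) and fewer macrophages, monocytes included (3085 cells against 4123). CD45 (Ptprc) UMIs were found in 87.1% of Ctrl and 92.5% of KD macrophages but in 16.0% and 20.1% of endothelial cells and in 19.3% and 17.9% of tumour or fibroblast cells, so cells with little or no Ptprc RNA were present after the sort. The hairpin acts in tumor cells, of which few were captured: the tumour or fibroblast class gave 12 Ly9 UMIs in Ctrl and 7 in KD, which is too few to check the knockdown. Kupffer cells, the resident macrophages of the liver, numbered 47 in Ctrl and 83 in KD. A small class of 164 Ctrl and 177 KD cells, led by Ifng, Cd160 and Xcl1, stayed unnamed. Its cells had many UMIs (median 9247.5 in Ctrl and 8778 in KD), and whether doublets were among them was not tested for this class.

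The members divided into groups by the cells that carried them. Levels are given as CPM, the gene's UMIs per 1000000 UMIs of all cells of that class and library, and are compared between classes for 1 gene at a time. Alox5 was a granulocyte transcript in both libraries. Granulocytes held 97 of 126 Alox5 UMIs in Ctrl (77.0%) and 548 of 667 in KD (82.2%), at 52.8 CPM (42.9 to 64.5) and 75.4 CPM (69.2 to 82.0). The next class was at 1.08 CPM in Ctrl (cDCs, conventional dendritic cells) and at 11.5 CPM in KD (the unnamed class), and below these the intervals of neighbouring classes overlapped. No Alox5 UMI was found in B cells, which allows up to 3.69 CPM in Ctrl and 1.21 CPM in KD, or in pDCs (plasmacytoid dendritic cells), which allows up to 6.12 and 6.44 CPM.

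Alox5ap was found across myeloid cells. In Ctrl its order was granulocytes (817 CPM), pDCs (549), cDCs (507) and macrophages (397), and the intervals of pDCs and cDCs overlapped. In KD the order was granulocytes (2326 CPM), macrophages (738), cDCs (662), the unnamed class (632) and pDCs (545). T cells were at 9.32 CPM in Ctrl and 35.3 CPM in KD. Ltb4r1 was led by granulocytes at 101 and 139 CPM and then macrophages at 46.5 and 71.8 CPM in Ctrl and KD, while pDCs had 1 and 3 UMIs.

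Ltc4s was a rare transcript, held mainly by macrophages (73.0% of its 189 UMIs in Ctrl and 84.8% of 1380 in KD). In Ctrl the levels in cDCs (9.37 CPM), endothelial cells (7.84) and macrophages (5.23) had overlapping intervals. In KD macrophages stood alone at the top, at 48.4 CPM (45.7 to 51.3), followed by the unnamed class at 29.2 CPM (21.5 to 38.7). Lta4h did not have its highest level in a myeloid class. NK cells led in both libraries (89.6 CPM in Ctrl, 69.3 in KD), then T cells (61.0 and 57.5) and cDCs (53.0 and 56.8). Only the interval of Ctrl NK cells stood clear of the next class. Macrophages were last of 10 classes in Ctrl at 22.0 CPM, overlapping pDCs, granulocytes, B cells and tumour or fibroblast cells. The NK cluster was also led by Lef1 and Tcf7, which T cells use, so it may not be pure.

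The cyclooxygenases were split between cell types. Ptgs1 was at 299 CPM in Ctrl and 414 CPM in KD Kupffer cells and at 202 and 195 CPM in endothelial cells, the last lying within counting error of each other. Far below came tumour or fibroblast cells, at 26.1 and 32.2 CPM, and macrophages, at 16.3 and 29.3 CPM, with intervals that overlapped in KD but not in Ctrl. Ptgs2 lay instead in granulocytes (1104 CPM in Ctrl, 372 in KD), macrophages (615 and 396), the unnamed class (376 and 205) and cDCs (243 and 227). Of the terminal synthases, Ptges was led by the tumour or fibroblast class, at 130 CPM (115 to 147) in Ctrl and 145 CPM (125 to 167) in KD. Each other class was at 5.45 CPM or less. By UMIs that class held 61.8% of Ptges in Ctrl and 53.2% in KD, and the more numerous macrophages 31.9% and 34.9%. Hpgds was highest in Kupffer cells (91.6 and 51.1 CPM) and macrophages (35.0 and 19.3 CPM). Pla2g4a had the same leading classes, at 190 and 218 CPM in Kupffer cells and 183 and 140 CPM in macrophages.

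**Figure D1:**
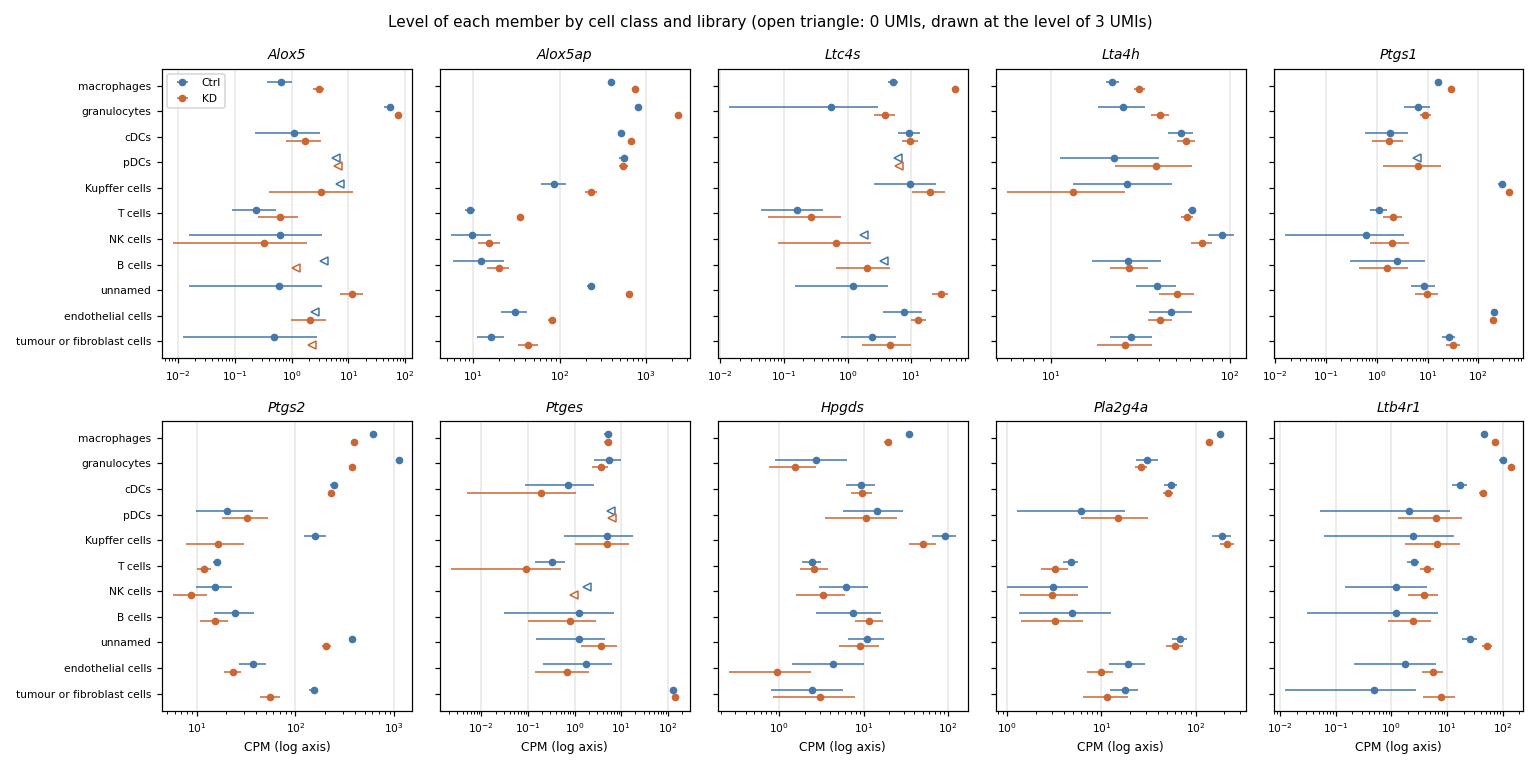
Level of each member in CPM (log axis, a separate axis for each gene) by cell class, Ctrl in blue and KD in orange, with 95% counting intervals, and with open triangles where no UMI was found, drawn at the level of 3 UMIs. Alox5 stands out in granulocytes, Ptgs1 in Kupffer and endothelial cells and Ptges in tumour or fibroblast cells in both libraries, whereas macrophage Ltc4s lies at 5.23 CPM in Ctrl and 48.4 CPM in KD.

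In macrophages, the leukotriene genes were higher in KD, whereas the phospholipase, Ptgs2 and Hpgds were lower. All 10 members had at least 20 UMIs over both libraries and were counted. Alox5 and Ltc4s were at least 2-fold higher in KD, against 3.48% of the 15947 genes counted, and 0 members were at least 2-fold lower, against 4.51%. Beyond counting error, 6 members were higher, 3 lower and 1, Ptges, not distinguishable, while 19.0% of all counted genes were higher and 24.0% lower in this sense. The median log2 ratio of KD over Ctrl was 0.56 for the members and -0.04 for all genes, with an interquartile range from -0.30 to 0.19.

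Ltc4s differed most. Macrophages gave 138 Ltc4s UMIs in Ctrl and 1170 in KD, or 5.23 and 48.4 CPM, a log2 ratio of 3.21 (2.95 to 3.47) or 9.25-fold. UMIs of Ltc4s were found in 70 of 4123 Ctrl macrophages (1.70%) and in 448 of 3085 KD macrophages (14.5%). Since KD macrophages had more UMIs per cell (median 7426 against 5593), each cell was also thinned to 1500 UMIs, leaving out 292 Ctrl and 142 KD macrophages below that depth. The shares were then 0.470% (0.279 to 0.742) and 5.20% (4.42 to 6.06). In T cells, which served as background, they were 0 of 3033 Ctrl cells, which allows up to 0.0989%, and 0.0637% of 1570 KD cells (unthinned 0.124% in Ctrl, median depths 6602 and 5577 UMIs).

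Ltc4s is also known from basophils, mast cells and platelets. The summed level of 10 basophil and mast cell markers in macrophages was 0.493 CPM in Ctrl and 0.786 CPM in KD, with 5 of the 10 at 0 in each, among them Fcer1a, Prss34 and Tpsb2. Over the whole data set, 3 Ctrl and 2 KD cells held at least 3 of these markers, and none had a Ltc4s UMI. In so few cells this allows up to 233 CPM in Ctrl and 409 CPM in KD, so their Ltc4s level stayed unknown. A list of 6 eosinophil markers summed to 0.531 CPM in Ctrl and 2.07 CPM in KD macrophages, from 14 and 50 UMIs. Of these markers, 4 were higher in KD, and their part in the Ltc4s level was not tested. The 8 platelet markers summed to 4.48 and 9.31 CPM, with 4 of them higher in KD, and Gp9, Gp1ba and Gp1bb were at 0 in both libraries. In the 48 KD cells of a small sub-cluster led by Pf4, Ccl6 and Arg1, which held 95 of the KD Ltc4s UMIs, they summed to 186 CPM, from 33 UMIs all of Ppbp, and their part in the Ltc4s level there was not tested.

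Alox5 in macrophages was scarce, with 17 UMIs in Ctrl and 72 in KD. This is 0.645 and 2.98 CPM, or a log2 ratio of 2.21 (1.43 to 3.06). Thinned shares were 2 of 3831 and 10 of 2943 macrophages, close to the level of single UMIs. Granulocyte RNA moved with this result: the 12 granulocyte markers, none at 0 in either library, summed to 340 CPM in Ctrl and 2116 CPM in KD macrophages, 11 of them higher in KD, and to 71.4 and 952 CPM in T cells. At the ratio of Alox5 to these markers in granulocytes, they would bring 0.246 CPM of Alox5 in Ctrl and 1.32 CPM in KD, which leaves 0.399 and 1.66 CPM. A macrophage sub-cluster led by granulocyte genes (S100a9, Retnlg, S100a8) held 5 of the 17 and 21 of the 72 UMIs, and without it the log2 ratio was 2.26 (1.33 to 3.30).

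Alox5ap was abundant in macrophages, at 10464 UMIs in Ctrl and 17837 in KD. The level was 397 CPM (389 to 405) in Ctrl and 738 CPM (727 to 749) in KD, a log2 ratio of 0.90 (0.86 to 0.93). Thinned shares of macrophages with a UMI were 39.8% and 57.2%, against 1.09% and 2.99% in T cells. Granulocyte RNA at the ratio above would bring 3.80 CPM in Ctrl and 40.7 CPM in KD, and leaves 393 and 698 CPM. For Ltc4s the same reckoning gave 0.0674 CPM in KD.

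The remaining leukotriene members were moderately higher. Lta4h was at 22.0 CPM in Ctrl and 31.1 CPM in KD macrophages, a log2 ratio of 0.50 (0.34 to 0.66). The leukotriene B4 receptor Ltb4r1 was at 46.5 and 71.8 CPM, a log2 ratio of 0.63 (0.52 to 0.73). The intervals of the 2 libraries did not overlap for either gene.

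In the prostaglandin branch the 2 cyclooxygenases went in opposite directions in macrophages. Ptgs1 had 431 UMIs in Ctrl and 709 in KD (16.3 and 29.3 CPM), a log2 ratio of 0.84 (0.67 to 1.02). Ptgs2 had 16224 and 9567 UMIs (615 and 396 CPM), a log2 ratio of -0.64 (-0.67 to -0.60), with thinned shares of 38.7% and 27.0% of macrophages against 1.98% and 1.53% of T cells. Kupffer cells had the highest Ptgs1 level of the classes, and their marker genes moved with Ptgs1. The 6 Kupffer markers summed to 16.7 CPM in Ctrl and 39.9 CPM in KD macrophages, and their part in the Ptgs1 difference was not tested. Endothelial cells, with Ptgs1 at 202 and 195 CPM, numbered 150 in Ctrl and 646 in KD. The part of their RNA in the macrophage Ptgs1 level was not tested either.

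Hpgds had 922 UMIs in Ctrl and 466 in KD macrophages, or 35.0 and 19.3 CPM. The log2 ratio was -0.86 (-1.02 to -0.70), and the thinned shares were 4.70% (4.05 to 5.42) and 2.11% (1.62 to 2.69). Ptges did not differ beyond counting error, at 5.16 and 5.13 CPM with an interval of the log2 ratio from -0.37 to 0.35. Pla2g4a, which supplies both branches, was at 183 CPM in Ctrl and 140 CPM in KD, a log2 ratio of -0.39 (-0.45 to -0.32).

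**Figure D2:**
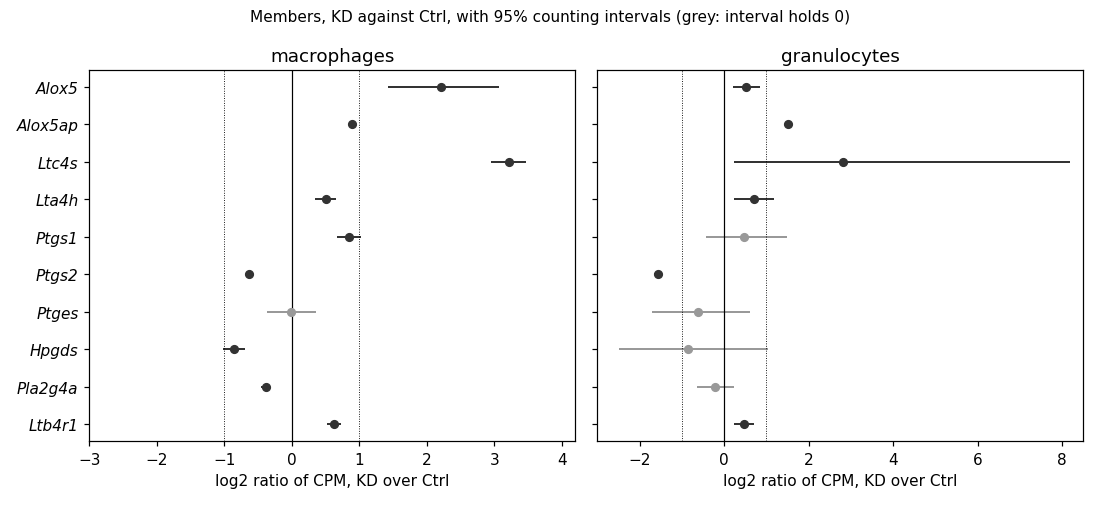
Log2 ratio of CPM, KD over Ctrl, of each member in macrophages (left) and granulocytes (right), with 95% counting intervals and dotted lines at 2-fold. In macrophages Alox5 (2.21) and Ltc4s (3.21) lie beyond the 2-fold line, and in granulocytes Alox5ap (1.51), Ltc4s (2.82, from 29 UMIs) and Ptgs2 (-1.57). Points in grey have intervals that hold 0.

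Macrophages were a mixture whose composition differed between libraries, so the members were also read within 11 sub-clusters, again made without them. Of these, 6 had at least 50 cells in each library and were compared. They were led by Upp1 and Ly6i (sub-cluster 0, 1300 Ctrl and 307 KD cells), by Mmp12 and Ccl8 with C1qa, C1qb and C1qc as markers, here called C1qc TAMs for tumor-associated macrophages (606 and 984), by AY036118 and Cadm1 with few UMIs per cell (839 and 315), by Vcan and Chil3 as monocytes (444 and 465), by Il1a, Cxcl1 and Il6 as inflammatory TAMs (352 and 295), and by cycling genes such as Top2a (491 and 136). A further pair of sub-clusters, led by Pf4, was almost entirely from KD. The first, led by Pf4, Tmem37, Ccl24 and Fn1, had 6 Ctrl and 349 KD cells, and the second, led by Pf4, Ccl6 and Arg1, had 1 and 48.

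The Ltc4s difference lay both in this pair and outside it. The KD-dominated pair held 717 of the 1170 KD UMIs (61.3%), at 228 CPM together, and 40 of the 138 Ctrl UMIs, at 777 CPM in 7 cells. Of these, 38 UMIs lay in the 6 Ctrl cells of the first sub-cluster. In those 6 cells the 6 Kupffer markers summed to 2292 CPM (113 UMIs, Clec4f and Vsig4 at 0), against 154 CPM in its KD cells. Whether these Ctrl and KD cells were of 1 type was not tested. Without the pair, macrophages still differed, with 98 UMIs in Ctrl and 453 in KD, 3.72 and 21.6 CPM, and a log2 ratio of 2.53 (2.21 to 2.86). Within single sub-clusters the level went from 17.1 to 73.1 CPM in inflammatory TAMs, from 2.50 to 14.7 CPM in C1qc TAMs, from 2.68 to 12.2 CPM in sub-cluster 0 and from 1.02 to 19.4 CPM in cycling cells. These 4 were beyond counting error. In monocytes (5 and 11 UMIs) and in the low-UMI sub-cluster (10 and 3 UMIs) the intervals held 0.

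Alox5ap was higher in KD in 6 of 6 sub-clusters, 5 of them beyond counting error, with log2 ratios from 0.05 in the low-UMI sub-cluster to 0.87 in inflammatory TAMs. Monocytes had its highest levels of the 6, at 961 CPM in Ctrl and 1384 CPM in KD, and C1qc TAMs were at 289 and 437 CPM. Ltb4r1 was likewise higher in 6 of 6, 4 beyond counting error, from 0.13 to 1.00. For Lta4h 4 of 6 were higher, 3 beyond counting error, and the largest was in cycling cells (26.2 to 50.4 CPM). Ptgs1 was higher beyond counting error in 4 of 6, with the highest of these levels in KD cycling cells (42.1 CPM).

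Ptgs2 was lower in KD in 5 of 6 sub-clusters, 4 beyond counting error. Inflammatory TAMs carried the most, 2283 CPM in Ctrl and 1473 CPM in KD, and in C1qc TAMs the level was 439 and 246 CPM. Monocytes, at 430 and 403 CPM, and the low-UMI sub-cluster, at 394 and 425 CPM, lay within counting error. Hpgds was lower in 6 of 6, 4 beyond counting error, for example 61.4 and 31.3 CPM in C1qc TAMs and 6.90 and 1.93 CPM in monocytes. Pla2g4a was lower in 6 of 6, 3 beyond counting error, for example 200 and 140 CPM in inflammatory TAMs. Averaged over the 6 sub-clusters with equal weight, the log2 ratios were 1.96 for Ltc4s, 0.60 for Alox5ap, 0.53 for Ptgs1, -0.53 for Ptgs2 and -0.92 for Hpgds.

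**Figure D3:**
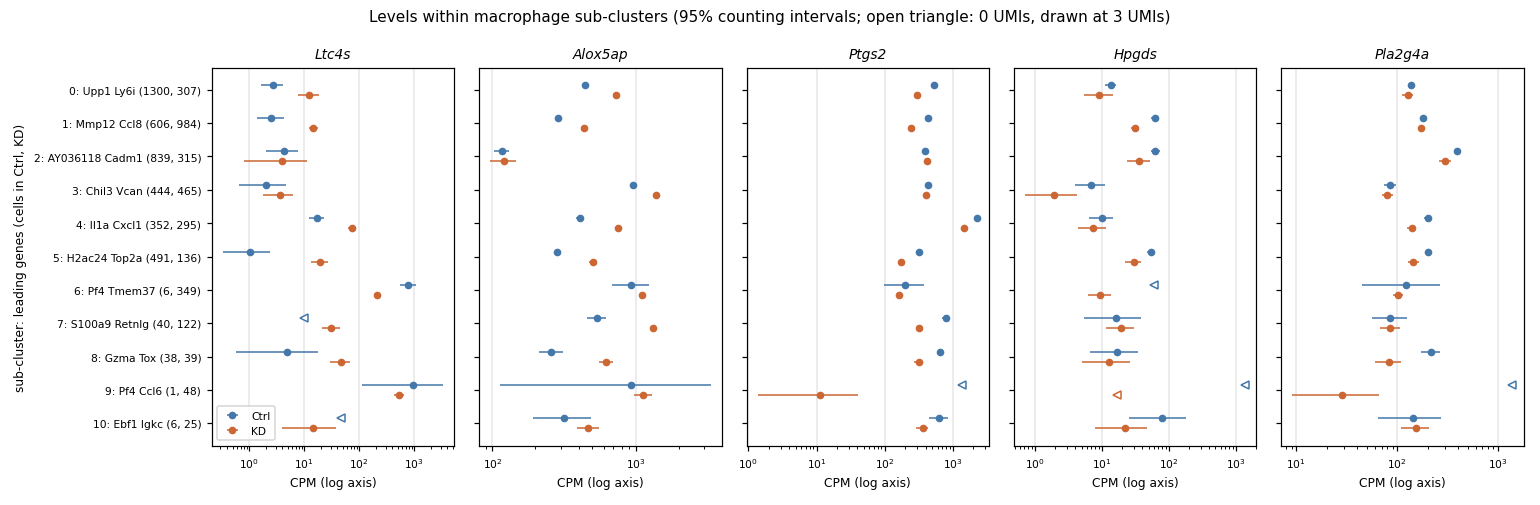
Levels of 5 members in CPM (log axes) within the 11 macrophage sub-clusters, named by their leading genes with cell numbers in Ctrl and KD, with 95% counting intervals and open triangles for 0 UMIs at the level of 3 UMIs. Ltc4s is highest in the Pf4-led sub-clusters 6 and 9, where the 7 Ctrl cells lie above KD, whereas KD lies above Ctrl in sub-clusters 0, 1, 4 and 5. The 6 Ctrl cells of sub-cluster 6 carried more Kupffer marker RNA than its KD cells (2292 and 154 CPM). Hpgds lies lower in KD in sub-clusters 0 to 5.

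In granulocytes Alox5ap was higher and Ptgs2 lower in KD, as in macrophages. Of the members, 9 had at least 20 UMIs and were counted, Hpgds being left out with 5 and 11. Alox5ap and Ltc4s were at least 2-fold higher in KD, against 10.0% of the 9744 genes counted, and Ptgs2 was at least 2-fold lower, against 8.41%. Beyond counting error 5 members were higher and 1 lower, while 20.3% of all counted genes were higher and 16.5% lower in this sense. The median log2 ratio was 0.47 for the members and 0.11 for all genes, with an interquartile range from -0.35 to 0.53.

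Alox5ap gave 1499 UMIs in Ctrl and 16912 in KD granulocytes, or 817 and 2326 CPM. The log2 ratio was 1.51 (1.43 to 1.59), and the thinned share of granulocytes with a UMI was 58.9% in Ctrl and 87.8% in KD. Ptgs2 was at 1104 and 372 CPM, a log2 ratio of -1.57 (-1.65 to -1.49), with thinned shares of 62.1% and 29.3%. Thinning left out 124 Ctrl and 182 KD granulocytes. The other genes of the leukotriene B4 route, its receptor included, were higher by less over all granulocytes. Alox5 was higher by 0.51 (0.20 to 0.84), Lta4h by 0.70 (0.24 to 1.18, 25.1 and 40.6 CPM) and Ltb4r1 by 0.46 (0.24 to 0.70). Ltc4s rested on 1 Ctrl and 28 KD UMIs, with an interval of the log2 ratio from 0.22 to 8.18. Intervals of Ptgs1, Ptges and Pla2g4a held 0.

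The 2 libraries held granulocytes of different states, and for Alox5ap and Ptgs2 the ratios within a state were smaller than those over all granulocytes. Of 6 granulocyte sub-clusters, made without the members, the one led by interferon-induced genes such as Cxcl10 and Ifit2 held 444 of the Ctrl cells (57.0%) and 117 of the KD cells (5.27%). A sub-cluster led by Retnlg and Ly6g held 15 Ctrl and 551 KD cells, and another, led by Arf2 and Saa3, held 76 and 750. Immature granulocytes, led by the granule genes Camp, Ngp and Ltf, numbered 46 and 287. Sub-cluster 1, led by Lypd6b and Fosb, had 176 and 413 cells, and sub-cluster 5, with few UMIs per cell, had 22 and 104.

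Ptgs2 was highest where the interferon genes were, at 1607 CPM in Ctrl and 1003 CPM in KD, apart from the 22 Ctrl cells of the low-UMI sub-cluster (1665 CPM from 24 UMIs). In immature granulocytes it was at 203 and 102 CPM. It was lower in KD in each of the 6 sub-clusters, beyond counting error in all of them. Over the 3 with at least 50 cells in each library, the log2 ratios ran from -0.68 to -0.38, with a mean of -0.55 against -1.57 over all granulocytes. For Alox5ap those 3 gave 0.74 to 0.93, each beyond counting error, with a mean of 0.86 against 1.51. Its level was lowest of these 3 in interferon granulocytes (473 and 788 CPM). Immature granulocytes (1656 and 3124 CPM) and the Retnlg-led cells (1636 and 2937 CPM) had the highest levels.

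Alox5 and Lta4h were highest in the immature granulocytes. Alox5 was at 112 CPM in Ctrl and 116 CPM in KD immature cells, against 37.9 and 41.1 CPM in interferon granulocytes, and within both the libraries lay within counting error of each other. Lta4h was at 144 and 109 CPM in immature cells and at 26.3 CPM or less in the other sub-clusters, so that the immature state held 36 of its 46 Ctrl and 204 of its 295 KD UMIs. Ltb4r1 in immature cells was at 148 and 234 CPM, a log2 ratio of 0.66 (0.18 to 1.19). For Alox5 none of the 3 compared sub-clusters differed beyond counting error, with log2 ratios from -0.36 to 1.00. For Lta4h 1 of these 3 was higher in KD beyond counting error, from 1 and 21 UMIs. The other 2 were lower, at -0.79 and -0.66, within counting error. In immature cells its log2 ratio was -0.39 (-0.91 to 0.16).

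**Figure D4:**
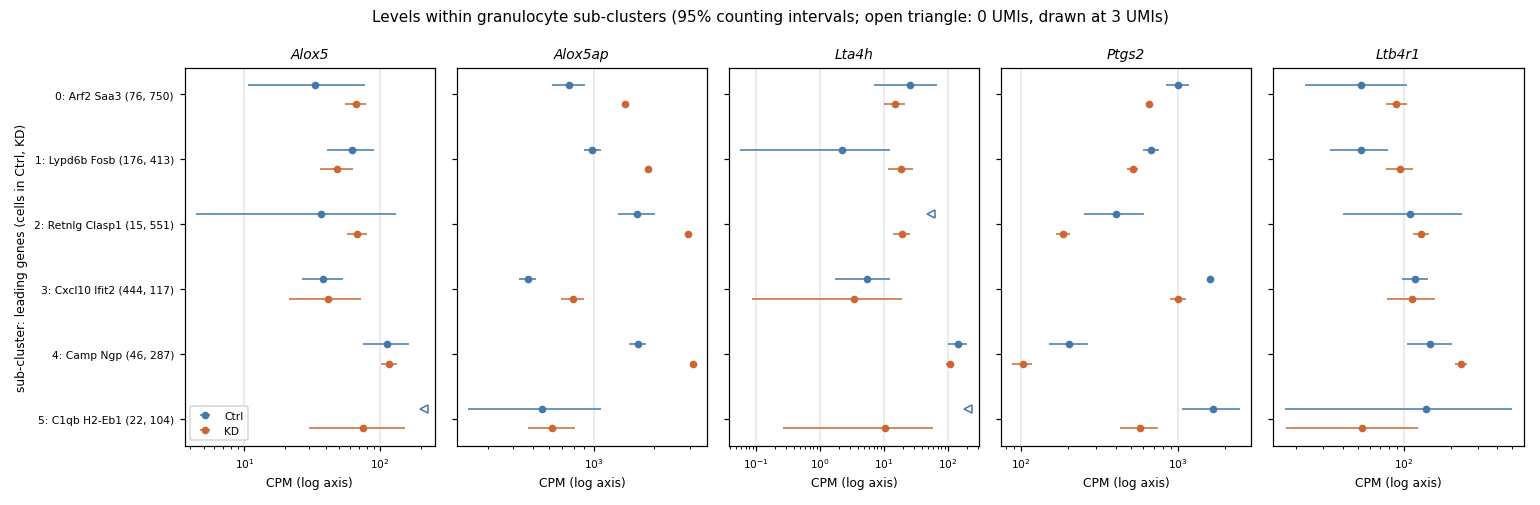
Levels of 5 members in CPM (log axes) within the 6 granulocyte sub-clusters, named by their leading genes with cell numbers in Ctrl and KD, with 95% counting intervals and open triangles for 0 UMIs at the level of 3 UMIs. Alox5 and Lta4h are highest in the Camp-led sub-cluster in both libraries among sub-clusters with a UMI. Alox5ap lies to the right and Ptgs2 to the left in KD in each sub-cluster.

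Whether the steps of 1 route met in the same cell was read from cells with UMIs of both genes. Among macrophages with an Alox5 UMI, 14 of 15 in Ctrl and 60 of 63 in KD also had Alox5ap, where 69.1% and 85.0% of all macrophages did. Of the same Alox5 cells, 3 in Ctrl and 24 in KD (38.1%) had Ltc4s, against 1.70% and 14.5% of all macrophages. In granulocytes Alox5 and Ltc4s were found together in 0 Ctrl and 5 KD cells, and Alox5 and Alox5ap in 65 and 418. Ptgs1 and Hpgds, which form a prostaglandin D2 route, met more often than the share of Hpgds in all macrophages: 36.1% of Ctrl and 22.2% of KD macrophages with Ptgs1 had Hpgds, whereas 622 of 4123 Ctrl (15.1%) and 340 of 3085 KD macrophages did. Of macrophages with Ptgs2, 14.4% in Ctrl and 9.83% in KD had Hpgds. Cells with more UMIs have more of any pair, so these shares are given as counts only.

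Outside macrophages and granulocytes, Ptgs2 was lower in KD in Kupffer cells, at 66 UMIs in Ctrl and 10 in KD (159 and 16.5 CPM). UMIs were found in 14 of 47 Ctrl and 7 of 83 KD Kupffer cells, so the difference rested on few cells. Tumour or fibroblast cells had 153 CPM of Ptgs2 in Ctrl and 55.9 CPM in KD, a log2 ratio of -1.45 (-1.84 to -1.08), and the unnamed class 376 and 205 CPM. In cDCs Ptgs2 lay within counting error (243 and 227 CPM), while Ltb4r1 was at 16.9 and 43.7 CPM, a log2 ratio of 1.37 (0.91 to 1.85). Their Ltc4s did not differ (9.37 and 9.59 CPM), with a log2 ratio between -0.68 and 0.78. In the unnamed class Ltc4s had 2 UMIs in Ctrl and 48 in KD, and Alox5 1 and 19.

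Alox5ap was higher beyond counting error in KD in 8 of 11 classes, T cells (9.32 and 35.3 CPM) and endothelial cells (30.5 and 81.2 CPM) among them. pDCs, at 549 and 545 CPM, NK cells and B cells lay within counting error. Granulocyte markers moved with this in T cells as given above, and at the granulocyte ratio they would bring 0.797 CPM of Alox5ap in Ctrl and 18.3 CPM in KD T cells.

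The other genes of the pathway were taken as a list of 55, of which 54 were in the files. In macrophages 37 were counted, 3 of them at least 2-fold higher in KD and 4 at least 2-fold lower, with 18 higher and 7 lower beyond counting error. Over all genes counted in macrophages these shares were 3.48%, 4.51%, 19.0% and 24.0%. The median log2 ratio of the 37 was 0.16, against -0.04 for all genes. In granulocytes 25 were counted, 4 of them at least 2-fold higher, against 10.0% of all genes, and 1 at least 2-fold lower, against 8.41%, with a median of 0.11, the value over all genes.

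Among genes that handle cysteinyl leukotrienes after Ltc4s, Dpep2, the dipeptidase that turns leukotriene D4 into E4, was at 15.3 CPM in Ctrl and 31.1 CPM in KD macrophages (log2 ratio 1.02, 0.84 to 1.20). Ggt1, which cleaves leukotriene C4, was at 5.45 and 28.3 CPM in granulocytes (2.38, 1.47 to 3.46), from 10 and 206 UMIs. Immature granulocytes held 4 and 106 of these, at a log2 ratio of 1.83 (0.43 to 3.73), and the Retnlg-led cells 0 and 77. In the 3 granulocyte sub-clusters with at least 50 cells in each library its interval held 0. The exporter Abcc1 was at 56.4 and 77.6 CPM in macrophages and at 51.8 and 39.8 CPM in granulocytes, and Abcc4 at 47.9 and 38.4 CPM in macrophages. All 3 further glutathione transferases of the family of Ltc4s were higher beyond counting error in macrophages, Mgst1 at 85.6 and 138 CPM, Mgst2 at 2.62 and 4.35 and Mgst3 at 21.8 and 32.9. Of the receptors, Cysltr1 was at 50.5 and 56.2 CPM in macrophages, a log2 ratio of 0.16 (0.05 to 0.27), and Cysltr2 at 13.4 and 4.72 CPM, with an interval of the log2 ratio from -1.82 to -1.19. Cysltr2 was highest in NK cells (107 and 98.8 CPM) and T cells (64.6 and 78.6 CPM).

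Among genes that end the signals, 1 of 3 counted for prostaglandin uptake and breakdown and both counted for leukotriene B4 breakdown were higher beyond counting error in KD macrophages. Hpgd, which inactivates prostaglandins, was at 7.81 CPM in Ctrl and 27.6 CPM in KD macrophages, a log2 ratio of 1.82 (1.60 to 2.06). Kupffer cells (561 and 620 CPM) and endothelial cells (218 and 222 CPM) held far more and lay within counting error between libraries. Without the Pf4-led pair the macrophage log2 ratio of Hpgd was 1.56 (1.32 to 1.80). Monocytes held 130 of its 206 Ctrl UMIs, and their ratio lay within counting error (0.18, -0.15 to 0.52). Hpgd was higher beyond counting error in inflammatory TAMs (3.18), sub-cluster 0 (2.14), the low-UMI sub-cluster (1.92) and C1qc TAMs (1.57). In cycling cells (8 and 0 UMIs) the interval held 0. Ptgr1 and Cyp4f18, which break down leukotriene B4, were at 8.15 and 15.7 CPM and at 137 and 175 CPM in macrophages. Slco2a1, the prostaglandin carrier, was highest in endothelial cells (579 CPM over both libraries).

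Anxa1, whose protein is known to restrain arachidonic acid release, was at 63.8 and 178 CPM in macrophages (log2 ratio 1.48, 1.40 to 1.56) and at 496 and 1409 CPM in granulocytes (interval 1.41 to 1.60). Within granulocyte states Anxa1 was higher in KD beyond counting error, by 1.75 in Arf2-led cells and 1.03 in Retnlg-led cells. The log2 ratio was 0.79 in interferon granulocytes, 0.78 in sub-cluster 1 and 0.45 in immature cells, which had the highest level (2242 and 3056 CPM). In sub-cluster 5 (0 and 22 UMIs) the interval held 0. The Anxa1 receptor Fpr2 was at 36.7 and 32.3 CPM in macrophages and at 237 and 210 CPM in granulocytes. The 5-lipoxygenase partner Cotl1 was at 517 and 614 CPM in macrophages, and the platelet-activating factor hydrolase Pla2g7 at 475 and 585 CPM. Pla2g15, the lysosomal phospholipase, was at 44.3 and 41.6 CPM in macrophages, within counting error. Of the remaining synthases, Tbxas1, which makes thromboxane, was at 202 and 190 CPM and Ptges3, a cytosolic prostaglandin E synthase, at 197 and 178 CPM. The prostaglandin E2 receptor Ptger4 was at 73.9 and 71.5 CPM in macrophages, within counting error, and Ptger2 at 27.2 and 13.6 CPM in granulocytes, from 50 and 99 UMIs. Within each of the 6 granulocyte sub-clusters the interval of Ptger2 held 0, with 33.6 and 30.8 CPM in interferon granulocytes.

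Alox15, a lipoxygenase of resident macrophages, had 62 UMIs in Ctrl and 11 in KD macrophages, a log2 ratio of -2.37 (-3.44 to -1.43). This rested on few cells. The 6 Ctrl cells of the first Pf4-led sub-cluster held 43 of the 62 UMIs, as they held 38 of the 138 Ltc4s UMIs, and another 17 lay in a sub-cluster led by T cell genes. Alox12, the platelet lipoxygenase, was highest in endothelial cells (38.7 CPM over both libraries).

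**Figure D5:**
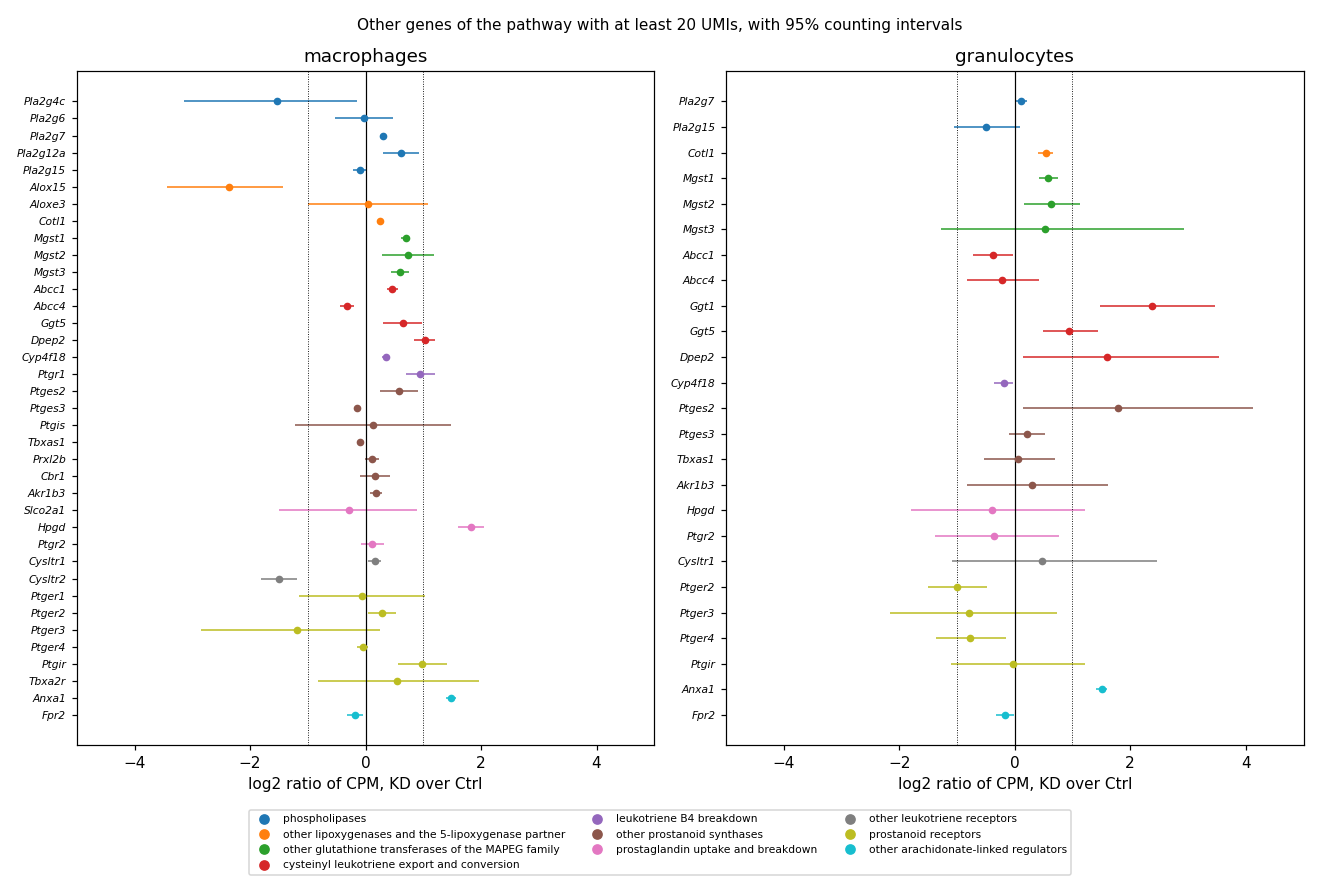
Log2 ratio of CPM, KD over Ctrl, of the other pathway genes with at least 20 UMIs in macrophages (left, 37 genes) and granulocytes (right, 25 genes), colored by role, with 95% counting intervals and dotted lines at 2-fold. Anxa1 lies beyond the 2-fold line in both, Hpgd at 1.82 and Cysltr2 below -1.19 in macrophages, and Ggt1 at 2.38 over all granulocytes.

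The genes whose levels followed each member most closely were read over 21 sums of class and library, as Pearson's r of log2 of CPM with 1 added, among 13439 genes. These points share libraries and differ in depth, so r is given as a description. Alox5 was followed by Cd177 (0.96), Entpd3 and Nfe2, and Alox5ap by Cd300a (0.95), Fgr and Ptafr. Ltc4s had its closest match in Pparg (0.84), ahead of Gm38042 and Ccl24, and Lta4h in Gm36723 (0.87), with Ppm1j also among the closest. For Ptgs1 the closest were Vcam1 (0.94), Plod1 and Ctnnd1, and for Ptgs2 Tiparp (0.93), Gm34084 and Gbp2. Ptges went with Plac9 (0.93), Olfml3 and Dlgap1, and Hpgds with Ctsc (0.90), Ly6e and Aldh1b1. Pla2g4a was followed by Tbxas1 (0.97), itself a prostanoid synthase of the list, Tnfrsf21 and Csf1r, and Ltb4r1 by Sirpb1b (0.96), Ccr1 and AI839979.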

How the data were processed

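CD45+ cells of liver metastases were profiled in 2 libraries, Ctrl and KD, with the hairpin in the labels as the group. The authors deposited raw UMI counts for each gene in each barcode, made with Cell Ranger 7.1.0 on GRCm39 per the submitters' processing notes. Promoter windows came from RefSeq on GRCm38.p6, the build given with their coordinates, and no other coordinates were used.

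The study's filters were applied: a minimum of 200 genes, a maximum of 6000 genes and 30000 UMIs, and no more than 10% of UMIs from mitochondrial genes, which left 19999 of 21359 barcodes. These upper limits were the only treatment of doublets in the main results, and marked doublets were removed in 1 of the alternatives below. Clustering used Seurat 5.3.0 (R 4.3.3) with 2000 variable genes, from which the members and the pathway list were removed, 20 principal components, resolution 0.5 and no integration. Classes were named from marker lists by at least 3 markers. Details of the naming rule, and the naming of sub-clusters, were settled after the clusters had been seen. The members and lists were chosen with earlier results of these data known.

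UMIs were summed per class and library and scaled to CPM, with exact Poisson intervals for counts, exact conditional binomial intervals for log2 ratios and exact Clopper-Pearson intervals for shares, all at 95% (Python 3.11.15, scipy 1.17.1). Where no UMI was found, the upper limit was set at 3. Genes were counted with at least 20 UMIs and called at 2-fold. With 1 library per group there was no replicate and no p-value. The text names the members, the pathway genes with at least 50 UMIs and 2-fold in either class, the 2 with most UMIs of each role, and the 3 genes most like each member, of which 1 is not reported here. Those named outside this rule were chosen after their values were seen. In simulated macrophage counts for 15947 genes, 200 of them changed, 100% of the changed genes had the right sign. The true ratio lay inside 95.5% of intervals, and 2-fold was passed by 1.34% of the unchanged. These counts were drawn with the counting error that the intervals assume, so they check the arithmetic only. They held no spread between mice or cells, and the changed genes were taken from those with higher counts. The 14 alternatives included TMM scaling (edgeR 4.0.16), thinned cells, another filter, doublet removal (771 Ctrl and 830 KD cells marked), resolution 1.0 and classes from single cells. Of these, 3 were added after the data had been seen.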

Additional observations from a re-analysis of the deposited data

How the results depend on the processing

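Of the 10 members counted in macrophages, 9 kept their sign under the alternatives run, the exception being Ptges (-0.25 to 0.05). In granulocytes 8 of 9 did, the exception being Pla2g4a (-0.36 to 0.12, above 0 only as the mean of sub-clusters). No call was reversed. As the mean of sub-clusters, however, 7 of the 10 macrophage ratios fell outside the counting intervals given above. Without the sub-clusters dominated by 1 library 4 of the 10 did. With cells thinned to 1500 UMIs, 1 member was at least 2-fold higher in macrophages (Ltc4s, Alox5 then having too few UMIs), 1 was at least 2-fold lower (Hpgds, -1.17), and 1 was at least 2-fold higher in granulocytes (Alox5ap). The macrophage median was 0.45 without the sub-clusters dominated by 1 library and 0.41 as the mean of sub-clusters, and the granulocyte median was 0.36 with classes taken from single cells. As the mean of granulocyte sub-clusters, chosen after seeing the data, 0 members were at least 2-fold higher and Alox5ap stood at 0.86. Ltc4s in macrophages ranged from 1.96 to 3.67, Alox5ap from 0.60 to 0.95, Ptgs2 from -0.65 to -0.51 and Hpgds from -1.17 to -0.72. TMM scaling shifted all ratios by 0.05. No paired analysis was possible because each group has 1 library. Depth limits the rare transcripts most: Alox5 and Ptges in macrophages and Ltc4s and Hpgds in granulocytes.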
